A study of Mus musculus with 10 samples.

Results

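The 38 genes described here make cholesterol and fatty acids, sense sterols or export cholesterol, and many of them are textbook targets of the sterol regulatory element-binding proteins (SREBPs). They were chosen by gene symbol, 38 of the 23992 symbols listed for each library, and where a symbol had several transcripts, only that with most reads in the series was used. By role they are 18 enzymes of sterol synthesis, 5 genes of sterol sensing and transport, 13 genes of fatty acid synthesis and 2 exporters of cholesterol. All 38 passed the filter on low counts, as did 14357 genes in all. Msmo1 is listed under its older symbol Sc4mol and was matched through its transcript.

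The series compared the RNA of mouse CD8+ T cells in 5 groups of 2 libraries each. Cells from spleens of C57BL/6N mice were activated for 48 h through CD3 and CD28 (antibodies at 2 µg/ml), pooled, washed and kept for a further 48 h in medium that held serum and sodium pyruvate in every group. The IL-21 + LDHi cells received mouse IL-21 (100 ng/ml) and NCI-737 (LDHi, 1 µM), an inhibitor of lactate dehydrogenase (LDH) known by its code name. The IL-2 + LDHi cells received human IL-2 (100 IU/ml) and the inhibitor at the same dose. The IL-21 and IL-2 cells received the cytokine alone, and the no cytokine cells received neither cytokine nor inhibitor. IL-2 and IL-21 are cytokines that act on activated T cells, and LDH interconverts pyruvate and lactate. The inhibitor was present from activation on, so an effect on activation cannot be told apart from an effect on the response to the cytokine, and no group received it without a cytokine.

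Levels are given as RPKM, reads scaled to transcript length and to the library total, as deposited, which can be compared between genes. Changes are log2 fold changes ± SE from edgeR's quasi-likelihood test on the counts, where 1 is a doubling, and a change is called at an adjusted p below 0.05. Each group has n = 2 libraries, and the labels do not say what a replicate number stands for, so the p-values reflect how far these libraries differ from each other, and that spread may be only technical. Library totals were 45138204 to 62848913 reads, of which 59.86% in IL-21 replicate 2 and 69.1% to 79.4% in the other libraries lay on the transcripts used. The RPKM of IL-21 replicate 2 are lowered by that small share, while the test scales libraries by the reads on these transcripts. The share was also lower in IL-21 + LDHi (69.27% and 69.96%) than in IL-2 (78.8% and 79.4%). Ranks of groups by mean RPKM may therefore differ from the scale of the test where means are close. The 2 IL-21 libraries also differed most from each other, with an SD of their log2 difference over genes of 0.76, against 0.302 to 0.488 in the other groups. The 9 markers of CD8+ T cells, the labelled cell type, summed to between 1615 and 1967 RPKM in every group.

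SREBPs are made as precursors in the membrane of the endoplasmic reticulum. When that membrane is poor in cholesterol, the escort protein SCAP takes them to the Golgi, where proteases free the part that enters the nucleus, and when sterols are plentiful INSIG proteins hold SCAP back. SREBP-2 mainly drives the genes of cholesterol synthesis and uptake and SREBP-1 those of fatty acid synthesis, while the liver X receptors (LXRs), which sense oxysterols, drive the exporters ABCA1 and ABCG1. T cells that grow and divide build membrane, and CD8+ T cells are known to need SREBP activity for their expansion. RNA levels do not show how much SREBP is processed.

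SREBP-2 acts beside the factor NF-Y, whose box is CCAAT, and Sp1, which binds GC boxes. A RefSeq promoter table of GRCm38.p6, from 250 bases before to 50 bases after each start, matched 30 of the 38 genes. All letters were searched on both strands, and a gene with several starts was counted once if any of its windows held them. The box CCAAT was present in 25 of these 30 genes (83.3%) and in 14 of 15 sterol synthesis genes (93.3%), against 42.8% of the 10503 tested genes in the table and 41.1% of all 27025 genes. Among fatty acid synthesis genes it was present in 7 of 10. The GC box GGGCGG was present in 24 of 30 (80.0%), against 65.6% of the tested genes and 38.2% of all genes. The sterol regulatory element TCACNCCAC was present in 1 of 30 (3.33%), against 1.43% of the tested genes and 1.44% of all genes. A match describes letters and is not a binding site. The promoters below are shown because their genes stand for patterns described further on: Hmgcs1 (chr13:119690101-119690400, plus strand, mm10) and Mvk (chr5:114444019-114444318, plus strand) for the sterol enzymes, Fads2 (chr19:10101454-10101753, minus strand) for the genes that were lowest with the inhibitor, and Elovl6 (chr3:129532136-129532435, plus strand) for the gene that was highest with IL-21. They read 5′ to 3′ on the strand of the gene, and capitals mark CCAAT, its reverse complement ATTGG and the element TCACNCCAC.
Hmgcs1: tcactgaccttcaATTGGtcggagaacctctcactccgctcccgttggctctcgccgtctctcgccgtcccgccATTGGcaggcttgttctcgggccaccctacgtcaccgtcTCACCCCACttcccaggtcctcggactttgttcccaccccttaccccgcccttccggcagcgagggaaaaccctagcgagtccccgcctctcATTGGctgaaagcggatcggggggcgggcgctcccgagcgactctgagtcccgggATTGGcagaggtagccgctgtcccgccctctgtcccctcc
Mvk: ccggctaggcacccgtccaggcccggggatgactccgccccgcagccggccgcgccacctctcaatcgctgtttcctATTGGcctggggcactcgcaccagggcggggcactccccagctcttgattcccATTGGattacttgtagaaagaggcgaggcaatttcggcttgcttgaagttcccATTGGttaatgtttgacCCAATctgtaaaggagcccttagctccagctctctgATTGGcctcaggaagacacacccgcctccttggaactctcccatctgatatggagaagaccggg
Fads2: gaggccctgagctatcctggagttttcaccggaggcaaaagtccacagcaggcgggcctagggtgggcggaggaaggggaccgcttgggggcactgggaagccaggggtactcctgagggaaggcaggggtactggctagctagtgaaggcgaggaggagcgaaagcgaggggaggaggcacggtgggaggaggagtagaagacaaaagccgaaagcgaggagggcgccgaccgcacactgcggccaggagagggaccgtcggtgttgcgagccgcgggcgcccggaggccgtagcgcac
Elovl6: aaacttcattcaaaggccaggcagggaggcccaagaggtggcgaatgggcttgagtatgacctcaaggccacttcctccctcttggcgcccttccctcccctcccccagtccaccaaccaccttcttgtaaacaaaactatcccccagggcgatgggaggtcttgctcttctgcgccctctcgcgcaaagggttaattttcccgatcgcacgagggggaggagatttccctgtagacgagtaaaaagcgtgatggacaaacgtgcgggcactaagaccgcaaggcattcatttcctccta
The Hmgcs1 window holds TCACCCCAC, which begins 137 bases before the start, and 4 CCAAT boxes. The Mvk window holds 5 CCAAT boxes, and the Fads2 and Elovl6 windows hold no capitals.

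Across the groups the lipid synthesis genes had 1 main pattern, a maximum with IL-2 alone. The mean RPKM was highest in IL-2 for 33 of the 38 genes, and for each of these 33 both IL-2 libraries lay above every other library. By mean RPKM, Elovl6 and Elovl1 were highest in IL-21, Abca1 in IL-21 + LDHi, and Acss2 and Abcg1 without cytokine. For Elovl1 (28.04 in IL-21, 27.83 in IL-2) and Abca1 the libraries of the highest group overlapped those of other groups. The lowest mean RPKM was in IL-21 + LDHi for 22 genes, in IL-2 + LDHi for 3, in IL-21 for 3, in IL-2 for Abca1 and without cytokine for 9. These ranks were not tested, and close means may be ordered otherwise on the scale of the test.

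**Figure D1:**
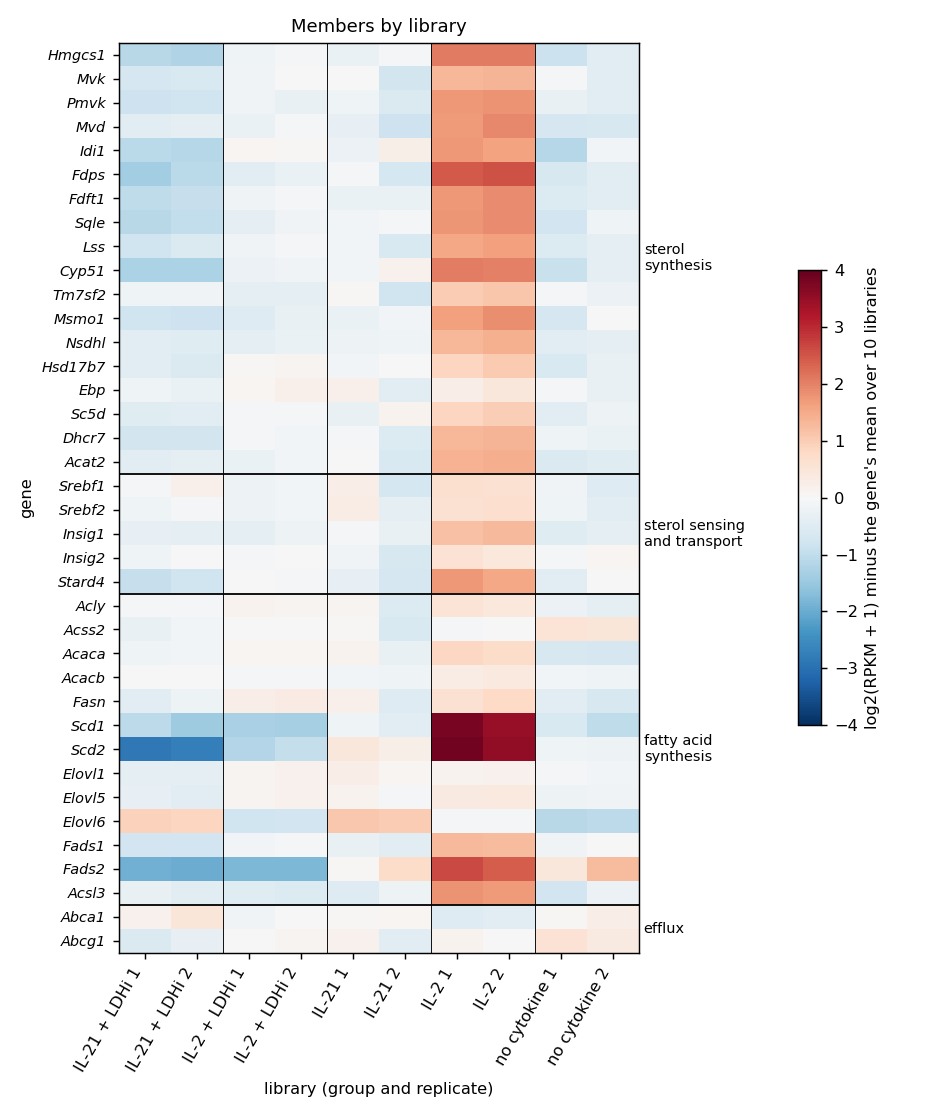
Level of each of the 38 genes (rows, grouped by role) in each of the 10 libraries (columns), as log2(RPKM + 1) minus the gene's mean over the libraries, red above and blue below it. The IL-2 columns are the highest in 33 of the 38 genes, and Scd2 and Fads2 are far below their means with the inhibitor.

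By edgeR's quasi-likelihood test, 34 of the 38 genes rose and 3 fell in IL-2 against no cytokine, where 25.6% and 24.8% of all tested genes did. In IL-21 against no cytokine 8 rose and 1 fell, beside 5.65% and 5.9% of all genes. In IL-21 against IL-2, 2 were higher and 31 lower, beside 24.9% and 24.7%. Most of the list was thus higher in IL-2 than without cytokine and lower in IL-21 than in IL-2. In IL-21 against no cytokine most of its genes were not called, but the share that rose was above that of all genes.

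With the inhibitor, 1 gene rose and 33 fell in IL-2 + LDHi against IL-2 (17.8% and 21.6% of all genes), and 1 rose and 17 fell in IL-21 + LDHi against IL-21 (11.1% and 20.3%). Between the groups with inhibitor, 2 genes were higher and 15 lower in IL-21 + LDHi than in IL-2 + LDHi (9.39% and 16.7%). Against no cytokine, 4 rose and 5 fell in IL-2 + LDHi (10.9% and 13.3%), which is near the background, and 4 rose and 11 fell in IL-21 + LDHi (13.5% and 23.6%). The interaction, which asks whether the change with the inhibitor differed between the cytokines, was positive for 25 genes and negative for 1 (7.98% and 13.8%). The comparisons share groups and are not independent of each other.

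Some of these counts rest on single libraries. The 8 genes called higher in IL-21 against no cytokine became 2 without no cytokine replicate 1, 3 or 4 without any 1 library of the IL-21 + LDHi, IL-2 + LDHi or IL-2 groups, and 14 without IL-21 replicate 1. The 17 that fell in IL-21 + LDHi against IL-21 became 10 without IL-21 + LDHi replicate 1 and 9 without its replicate 2. The 15 lower in IL-21 + LDHi than in IL-2 + LDHi became 4 and 5 without IL-21 + LDHi replicate 1 and 2, and 6 and 7 without IL-2 + LDHi replicate 1 and 2. Against no cytokine, the 4 higher in IL-2 + LDHi became 11 without either IL-21 library and 2 without no cytokine replicate 1, IL-2 replicate 1 or any 1 library with inhibitor, and the 5 lower became 2 without no cytokine replicate 1 or either IL-2 + LDHi library and 3 without either IL-2 library. In IL-21 + LDHi the 4 higher became 9 without either IL-21 library and 2 without no cytokine replicate 2, and the 11 lower became 5 and 6 without IL-21 + LDHi replicate 1 and 2 and 7 without no cytokine replicate 2. The 25 positive interactions became 16 without IL-2 + LDHi replicate 1. The counts of IL-2 against no cytokine (32 to 35 higher) and of IL-2 + LDHi against IL-2 (28 to 33 lower) moved little.

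**Figure D2:**
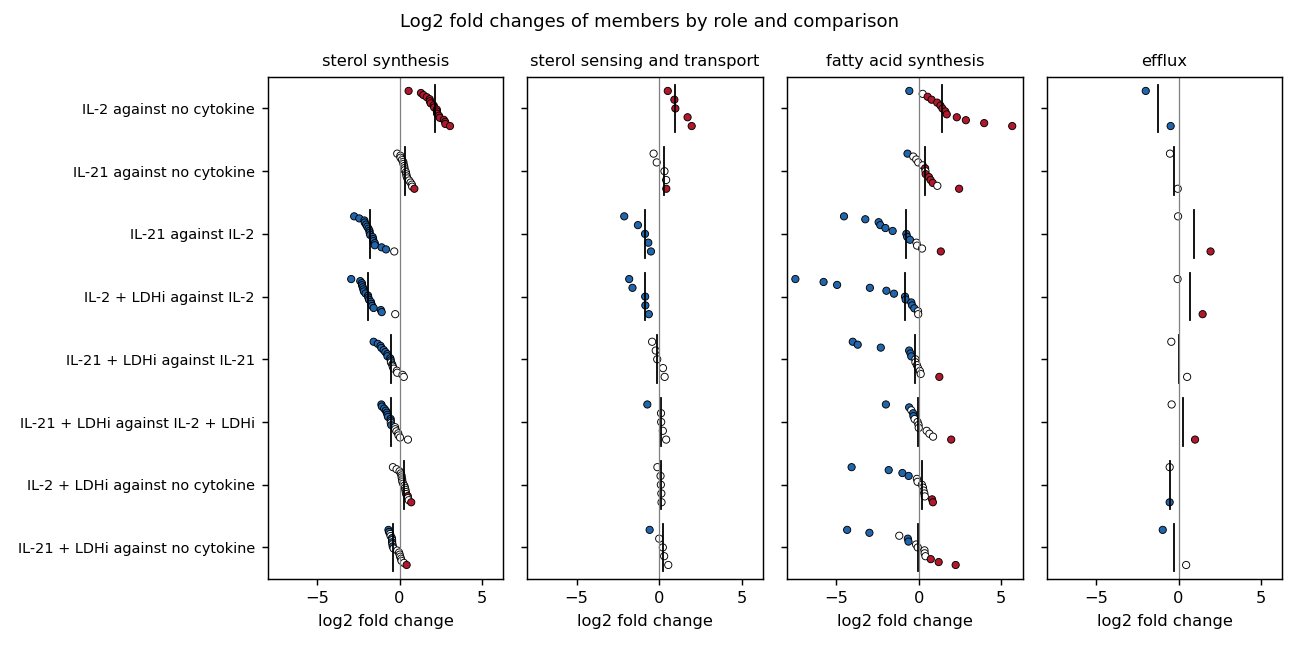
Log2 fold change of each gene (points) in 8 comparisons, by role, with red points called higher, blue points called lower, white points not called and a black line at the median. For sterol synthesis the medians were 2.18 in IL-2 against no cytokine and -1.90 in IL-2 + LDHi against IL-2.

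The medians of the roles differed in sign. In IL-2 against no cytokine the median log2 change was 2.18 for sterol synthesis, 0.98 for sensing and transport, 1.43 for fatty acid synthesis, -0.13 for 9 genes of sterol uptake (with Mylip, which acts against it, included) and -1.24 for the 2 exporters, against -0.03 over all tested genes. In IL-2 + LDHi against IL-2 the medians were -1.90, -0.85, -0.84, -0.58 and 0.70 in the same order, against 0.01. For IL-21 + LDHi against IL-21 they were -0.54, -0.12, -0.21, -0.41 and 0.04, against -0.03. The medians of the exporters are over 2 genes that lay on opposite sides of 0 in both inhibitor comparisons. Without IL-21 + LDHi replicate 2 their median in the last comparison was -0.20, and that of sensing and transport was 0.10 without IL-21 replicate 1.

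Cells of other types and cell division moved with several of these comparisons. The 9 myeloid markers summed to 100.1 RPKM in IL-21 + LDHi, 97.71 in IL-2 + LDHi, 161.3 in IL-21, 73.08 in IL-2 and 305.6 without cytokine. Ctss made up most of these sums in the groups with cytokine, with means of 90.22, 66.87, 88.21, 54.87 and 95.54 RPKM in the same order. Lyz2, another of the 9, averaged 2.937, 8.671, 34.58, 1.384 and 131.0 RPKM and so varied more than the sums. The 4 basophil and mast cell markers summed to 0.9721, 1.427, 72.12, 2.529 and 310.4 RPKM in that order. Of these markers, 8 of 9 and 4 of 4 were lower in IL-2 than without cytokine, 4 of 9 and 3 of 4 in IL-21, and 8 of 9 and 4 of 4 in IL-21 + LDHi against IL-21. Of all tested genes 24.8%, 5.9% and 20.3% were lower in these 3 comparisons. In IL-2 + LDHi against IL-2, 5 of the 9 myeloid markers rose and 1 fell, beside 17.8% and 21.6% of all tested genes. B cell markers summed to between 9.017 and 15.01 RPKM over the groups, and erythroid markers to between 0.1605 and 5.282. The 2 NK cell markers summed to 8.479 RPKM in IL-2 + LDHi and to between 0.3418 and 0.8528 in the other groups, and both rose in IL-2 + LDHi against IL-2. The CD4 T cell markers Cd4 and Foxp3 summed to 4.58 RPKM in IL-2 + LDHi and to between 0.4476 and 1.67 in the other groups. Of them Foxp3 rose in IL-2 + LDHi against IL-2, to 4.099 RPKM, against 0.86 in IL-2. Cd4 had a lower mean in IL-2 + LDHi (0.4813 RPKM) than in IL-2 (0.81) and was not called, so the higher sum came from Foxp3. Alas2 was at 0 reads in both IL-21 libraries, and no other marker was at 0 in both libraries of a group. Mki67, a gene of dividing cells, measured 1.24 and 1.39 RPKM in IL-21 + LDHi, 116 and 117 in IL-2 + LDHi, 50.4 and 51.2 in IL-21, 138 and 124 in IL-2, and 35.4 and 33.1 without cytokine. Top2a, another gene of dividing cells, averaged 4.889 RPKM in IL-21 + LDHi, 158.0 in IL-2 + LDHi, 57.36 in IL-21, 229.8 in IL-2 and 40.73 without cytokine. In IL-2 + LDHi against IL-2 Top2a fell (-0.58 ± 0.12, adjusted p = 0.00494) and Mki67 was not called, and in IL-21 + LDHi against IL-21 both fell. The part of these cells and of division in the comparisons was not tested, and in bulk RNA fewer cells of a type and less RNA per cell cannot be told apart.

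The sterol synthesis genes moved together with IL-2. All 18 enzymes rose in IL-2 against no cytokine, by 0.55 (Ebp) to 3.06 (Fdps), and 17 of these calls held in every fit without 1 library. Their summed level was 121.0 ± 2.39 RPKM in IL-21 + LDHi, 196.3 ± 9.05 in IL-2 + LDHi, 190.5 ± 10.5 in IL-21, 770.7 ± 29.9 in IL-2 and 158.2 ± 22.1 without cytokine (SD, n = 2 each).

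The pathway opens with Acat2, which joins acetyl-CoA units, and Hmgcs1, which makes the precursor of mevalonate and whose promoter is printed above. Hmgcs1 measured 11.9 and 11.0 RPKM in IL-21 + LDHi, 23.8 and 25.8 in IL-2 + LDHi, 22.0 and 25.2 in IL-21, 116 and 117 in IL-2, and 14.1 and 19.5 without cytokine. The IL-2 libraries stood several-fold above all others, and the IL-21 + LDHi libraries lay below all others. By edgeR's test Hmgcs1 rose by 2.77 ± 0.20 in IL-2 against no cytokine (adjusted p = 1.32e-05), fell by 2.27 ± 0.20 in IL-2 + LDHi against IL-2 (6.26e-05) and fell by 1.10 ± 0.19 in IL-21 + LDHi against IL-21 (0.00273). Acat2 rose by 2.07 ± 0.15 with IL-2 and fell by 1.74 ± 0.14 in IL-2 + LDHi against IL-2.

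The mevalonate arm of Mvk, Pmvk, Mvd, Idi1 and Fdps turns mevalonate into the isoprenoid farnesyl diphosphate. Fdps, which makes that product, measured 9.19 and 11.7 RPKM in IL-21 + LDHi, 19.3 and 21.2 in IL-2 + LDHi, 24.9 and 15.4 in IL-21, 145 and 156 in IL-2, and 16.3 and 19.3 without cytokine. Among the 18 enzymes it had the largest rise with IL-2 (3.06 ± 0.17, or 8.34-fold, adjusted p = 5.05e-06) and the largest fall in IL-2 + LDHi against IL-2 (-2.93 ± 0.17, adjusted p = 1.15e-05). Mvd, the decarboxylase, measured 5.64 and 5.99 RPKM in IL-21 + LDHi, 6.41 and 7.50 in IL-2 + LDHi, 6.13 and 4.01 in IL-21, 28.2 and 33.3 in IL-2, and 4.68 and 4.74 without cytokine. Outside IL-2 the Mvd libraries lay between 4.01 and 7.50 RPKM, and Mvd had the largest interaction of the 18 (2.37 ± 0.21, adjusted p = 0.000104). The kinases Mvk and Pmvk rose with IL-2 by 1.83 ± 0.23 and 2.28 ± 0.14, and the isomerase Idi1 by 2.27 ± 0.36.

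Squalene is formed by Fdft1, oxidised by Sqle and closed to a ring by Lss. Sqle, a rate-limiting enzyme of the pathway, measured 4.78 and 5.36 RPKM in IL-21 + LDHi, 8.72 and 10.3 in IL-2 + LDHi, 10.6 and 11.1 in IL-21, 41.1 and 45.5 in IL-2, and 6.33 and 10.0 without cytokine. As for Hmgcs1, IL-2 was far above and IL-21 + LDHi below all other libraries. In IL-2 against no cytokine Fdft1 rose by 2.44 ± 0.14, Sqle by 2.39 ± 0.22 and Lss by 2.26 ± 0.15.

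Cyp51 demethylates lanosterol. It measured 4.12 and 4.13 RPKM in IL-21 + LDHi, 9.45 and 10.2 in IL-2 + LDHi, 10.5 and 13.0 in IL-21, 50.4 and 49.0 in IL-2, and 5.64 and 8.65 without cytokine. With each cytokine the libraries with inhibitor lay below those without. Cyp51 fell by 2.38 ± 0.23 in IL-2 + LDHi against IL-2 and by 1.57 ± 0.23 in IL-21 + LDHi against IL-21, and its interaction of 0.81 ± 0.32 was not called (adjusted p = 0.106). It was the 1 sterol enzyme called higher in IL-21 against no cytokine (0.90 ± 0.23, adjusted p = 0.0371), and that call was lost in 8 of the 10 fits without 1 library, all but those without IL-21 replicate 1 or no cytokine replicate 2 (0.14 without no cytokine replicate 1).

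The later enzymes that turn lanosterol into cholesterol rose with IL-2 as well. Msmo1, which oxidises methyl groups, rose by 2.10 ± 0.25, Nsdhl, which removes them, by 1.89 ± 0.14, and the ketoreductase Hsd17b7 by 1.84 ± 0.21. The reductases Dhcr7 and Tm7sf2 rose by 1.65 ± 0.11 and 1.45 ± 0.27, and the desaturase Sc5d by 1.30 ± 0.22. Ebp, the sterol isomerase, rose least. It measured 15.3 and 14.3 RPKM in IL-21 + LDHi, 18.3 and 20.0 in IL-2 + LDHi, 19.9 and 12.5 in IL-21, 21.1 and 23.7 in IL-2, and 16.5 and 13.7 without cytokine. Ebp rose by 0.55 ± 0.15 in IL-2 against no cytokine (adjusted p = 0.0135), a call lost without no cytokine replicate 2 (0.0882) or IL-2 replicate 2 (0.0931), and in IL-2 + LDHi against IL-2 its change was not called (-0.26 ± 0.15, 0.194).

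**Figure D3:**
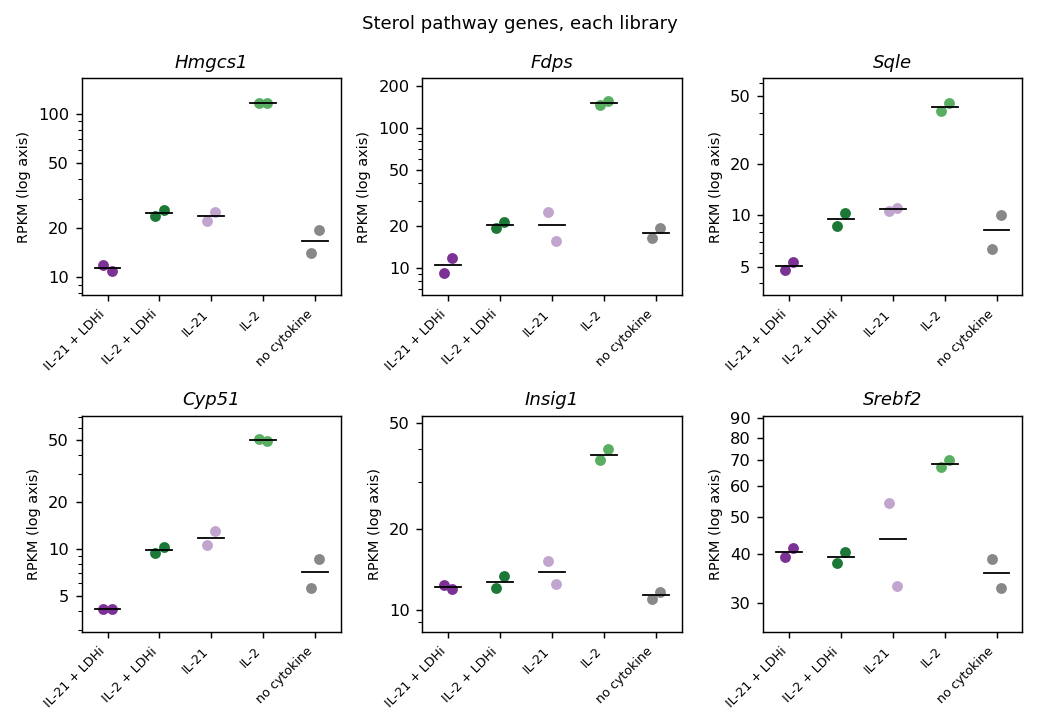
RPKM on a log axis in each library (points) with the mean of each group (line) for 4 sterol enzymes, the sensor Insig1 and the transcription factor gene Srebf2. In every panel both IL-2 libraries are the highest (116 and 117 RPKM for Hmgcs1), and for the 4 enzymes both IL-21 + LDHi libraries are the lowest.

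In IL-2 + LDHi against IL-2, 17 of the 18 sterol enzymes fell, and each of these 17 calls held in all 10 fits without 1 library. Mean levels in IL-2 + LDHi were 13.5% (Fdps) to 85.6% (Ebp) of those in IL-2. Against no cytokine, Mvd (0.50 ± 0.15, adjusted p = 0.036) and Hsd17b7 (0.71 ± 0.21, 0.0369) were higher in IL-2 + LDHi and the other 16 enzymes were not called, which does not show that their levels were equal. The Mvd call was kept only without either IL-21 library or IL-2 replicate 2 (0.256 without IL-2 + LDHi replicate 2). That of Hsd17b7 was kept in the same fits and without no cytokine replicate 2 (0.19 without no cytokine replicate 1).

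With IL-21, 11 of the 18 fell in IL-21 + LDHi against IL-21. The calls of Cyp51, Sqle (-1.15 ± 0.22), Hmgcs1, Fdps (-0.96 ± 0.17) and Fdft1 (-0.86 ± 0.13) held in every fit without 1 library. Those of Idi1 (-1.32 ± 0.35), Hsd17b7, Msmo1, Pmvk, Dhcr7 and Lss did not: without IL-21 + LDHi replicate 2 the adjusted p was 0.114 for Idi1, 0.157 for Hsd17b7, 0.194 for Msmo1, 0.0769 for Pmvk and 0.0572 for Dhcr7, and without its replicate 1 it was 0.272 for Lss. The IL-21 + LDHi mean RPKM was the lowest of the 5 groups for 15 of the 18 enzymes. This rank was not tested, and close means may be ordered otherwise on the scale of the test. Compared with no cytokine, Fdps, Fdft1, Cyp51, Dhcr7 and Pmvk fell and Mvd rose in IL-21 + LDHi, but each of these 6 calls was lost in some fit without 1 library, with adjusted p up to 0.31 (Cyp51 without no cytokine replicate 2).

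Between the groups with inhibitor, 10 of the 18 enzymes were lower in IL-21 + LDHi than in IL-2 + LDHi, with a median over the 18 of -0.53. The log2 difference was -0.93 ± 0.19 for Hmgcs1 (adjusted p = 0.00682, and 0.0636 without IL-21 + LDHi replicate 2), -1.07 ± 0.23 for Cyp51 (0.00811, and 0.0556 and 0.0596 without IL-21 + LDHi replicate 1 and 2) and -0.83 ± 0.13 for Fdft1 (0.00176). The Fdft1 call was the 1 of these 10 that held in all fits without 1 library. The interaction was called for 13 of the 18, each positive, so that the change with the inhibitor was more negative in IL-2 than in IL-21. Of these, 9 held in every fit without 1 library, while Hmgcs1, Mvk, Msmo1 and Sqle lost the call without IL-2 + LDHi replicate 1 (adjusted p of 0.0625, 0.0974, 0.0561 and 0.129).

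Some reads of sterol genes may come from neighbouring genes, since no source used here states whether the counting used strand. Exons of Fdft1 overlap those of Ctsb on the opposite strand over 774 bases (20.9% of its exonic bases), and those of Hmgcs1 overlap the antisense gene Gm48342 over 557 bases (16.0%). Those of Fdps share 1124 bases (77.4%) with Gm43738 on the same strand. The values of these 3 genes are uncertain to that extent.

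Genes that sense and carry sterols moved the same way as the enzymes in the IL-2 comparisons, with smaller medians. All 5 rose in IL-2 against no cytokine, 5 of 5 were lower in IL-21 than in IL-2, and 5 of 5 fell in IL-2 + LDHi against IL-2. For IL-21 + LDHi against IL-21 edgeR's test called 0 of 5, with 1 at an unadjusted p below 0.05 (Stard4), and DESeq2 and limma called 0.

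Insig1, an SREBP target whose product retains SCAP, measured 12.4 and 12.0 RPKM in IL-21 + LDHi, 12.1 and 13.4 in IL-2 + LDHi, 15.2 and 12.5 in IL-21, 36.3 and 39.9 in IL-2, and 11.0 and 11.7 without cytokine. The IL-2 libraries stood apart, and all others lay between 11.0 and 15.2 RPKM. Insig1 rose by 1.72 ± 0.10 in IL-2 against no cytokine (adjusted p = 5.79e-06) and fell by 1.62 ± 0.10 in IL-2 + LDHi against IL-2 (1.44e-05). Its rise in IL-21 against no cytokine (0.43 ± 0.10, 0.0286) was kept only in the fits without either IL-21 library (0.104 without no cytokine replicate 1). Its paralogue Insig2 rose with IL-2 by 0.52 ± 0.15 (0.0172), a call lost without no cytokine replicate 1 (0.0909) or IL-2 replicate 1 (0.119).

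Srebf2, which encodes SREBP-2, measured 39.4 and 41.5 RPKM in IL-21 + LDHi, 38.1 and 40.5 in IL-2 + LDHi, 54.2 and 33.2 in IL-21, 67.0 and 70.1 in IL-2, and 39.0 and 32.7 without cytokine. It rose by 0.92 ± 0.15 in IL-2 against no cytokine (adjusted p = 0.000838) and fell by 0.84 ± 0.14 in IL-2 + LDHi against IL-2 (0.00202). Srebf1, which encodes SREBP-1 and whose isoforms were not told apart here, measured 15.6 and 18.5 RPKM in IL-21 + LDHi, 13.9 and 15.0 in IL-2 + LDHi, 19.7 and 9.49 in IL-21, 25.7 and 24.9 in IL-2, and 14.5 and 10.9 without cytokine. For both factors the IL-2 libraries were the highest and the 2 IL-21 libraries were far apart. The rise of Srebf1 in IL-2 against no cytokine (0.98 ± 0.23, 0.00633) was lost without no cytokine replicate 2 (0.0501), and its fall in IL-2 + LDHi against IL-2 (-0.85 ± 0.23, 0.0162) without any 1 library of those groups (up to 0.101, without IL-2 + LDHi replicate 1).

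Stard4, a carrier of cholesterol between membranes, changed within the range of the enzymes. It measured 5.49 and 6.12 RPKM in IL-21 + LDHi, 11.0 and 10.7 in IL-2 + LDHi, 8.74 and 6.66 in IL-21, 39.9 and 35.0 in IL-2, and 7.93 and 11.0 without cytokine. It rose by 1.97 ± 0.17 in IL-2 against no cytokine and fell by 1.82 ± 0.16 in IL-2 + LDHi against IL-2. The interaction was called for all 5 genes of the role, and those of Insig1 (1.41 ± 0.14) and Stard4 (1.39 ± 0.23) held in every fit without 1 library. Those of Srebf1, Srebf2 and Insig2 did not, with adjusted p of 0.136, 0.135 and 0.064 without IL-2 + LDHi replicate 1.

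Fatty acid synthesis was mixed. In IL-2 against no cytokine 11 of the 13 genes rose and Acss2 fell, and in IL-2 + LDHi against IL-2, 11 of 13 fell. In IL-21 against no cytokine 6 of 13 rose and 1 fell, beside 5.65% and 5.9% of all tested genes. Counts in that comparison rested on single libraries, as described above. Summed over the 13 genes the level was 182.5 ± 0.121 RPKM in IL-21 + LDHi, 215.7 ± 4.14 in IL-2 + LDHi, 240.0 ± 36.2 in IL-21, 619.7 ± 54.9 in IL-2 and 194.8 ± 1.43 without cytokine (SD, n = 2 each). Scd2 made up a large share of the sum in IL-2, and without it the means were 180.4, 206.5, 214.3, 343.7 and 177.3 RPKM in the same order.

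Scd2, a stearoyl-CoA desaturase that makes monounsaturated fatty acids, measured 1.89 and 2.15 RPKM in IL-21 + LDHi, 8.40 and 9.92 in IL-2 + LDHi, 27.6 and 23.9 in IL-21, 306 and 246 in IL-2, and 17.8 and 17.2 without cytokine. None of the 5 groups overlapped another, and both groups with inhibitor lay below the no cytokine group. Scd2 rose by 3.96 ± 0.16 in IL-2 against no cytokine (15.6-fold, adjusted p = 2.01e-06). It fell by 4.96 ± 0.17 in IL-2 + LDHi against IL-2 (31.0-fold, 2.25e-06) and by 3.71 ± 0.16 in IL-21 + LDHi against IL-21 (13.0-fold, 8.08e-07). Against no cytokine it fell by 1.00 ± 0.14 in IL-2 + LDHi and was 7.98-fold lower in IL-21 + LDHi, and both calls held in every fit without 1 library.

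Scd1, its paralogue, measured 0.455 and 0.124 RPKM in IL-21 + LDHi, 0.220 and 0.197 in IL-2 + LDHi, 1.62 and 1.19 in IL-21, 40.8 and 32.6 in IL-2, and 0.961 and 0.463 without cytokine. The IL-2 + LDHi libraries held 67 and 46 Scd1 reads, against 9797 and 8722 in the IL-2 libraries. In these comparisons Scd1 had the largest changes of the 38 genes, a rise of 5.66 ± 0.49 in IL-2 against no cytokine (50.5-fold, adjusted p = 3.23e-05) and a fall of -7.49 ± 0.55 in IL-2 + LDHi against IL-2 (179-fold, 2.76e-05). With IL-21 it fell by 2.31 ± 0.48 in IL-21 + LDHi against IL-21 (0.00663), and the interaction was 5.18 ± 0.70 (0.00107). The transcripts of Scd1 and Scd2 share 145 of 4783 stretches of 50 bases (3.03%), so few of their reads could be confused.

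Fads1 and Fads2 make polyunsaturated fatty acids. Fads2, whose promoter is printed above, measured 0.459 and 0.383 RPKM in IL-21 + LDHi, 0.570 and 0.578 in IL-2 + LDHi, 4.64 and 8.26 in IL-21, 33.0 and 28.3 in IL-2, and 6.51 and 12.2 without cytokine. All 4 libraries with inhibitor lay below all 6 without. By edgeR's test Fads2 fell by 5.78 ± 0.47 in IL-2 + LDHi against IL-2 (54.8-fold, adjusted p = 4.39e-05) and by 4.01 ± 0.46 in IL-21 + LDHi against IL-21 (16.1-fold, 0.000221), and its interaction was not called (1.76 ± 0.63, 0.0763). Against no cytokine it fell by 4.08 ± 0.44 in IL-2 + LDHi and by 4.35 ± 0.46 in IL-21 + LDHi. Fads1 changed less, with a rise of 1.43 ± 0.11 in IL-2 against no cytokine and a fall of -1.51 ± 0.11 in IL-2 + LDHi against IL-2.

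**Figure D4:**
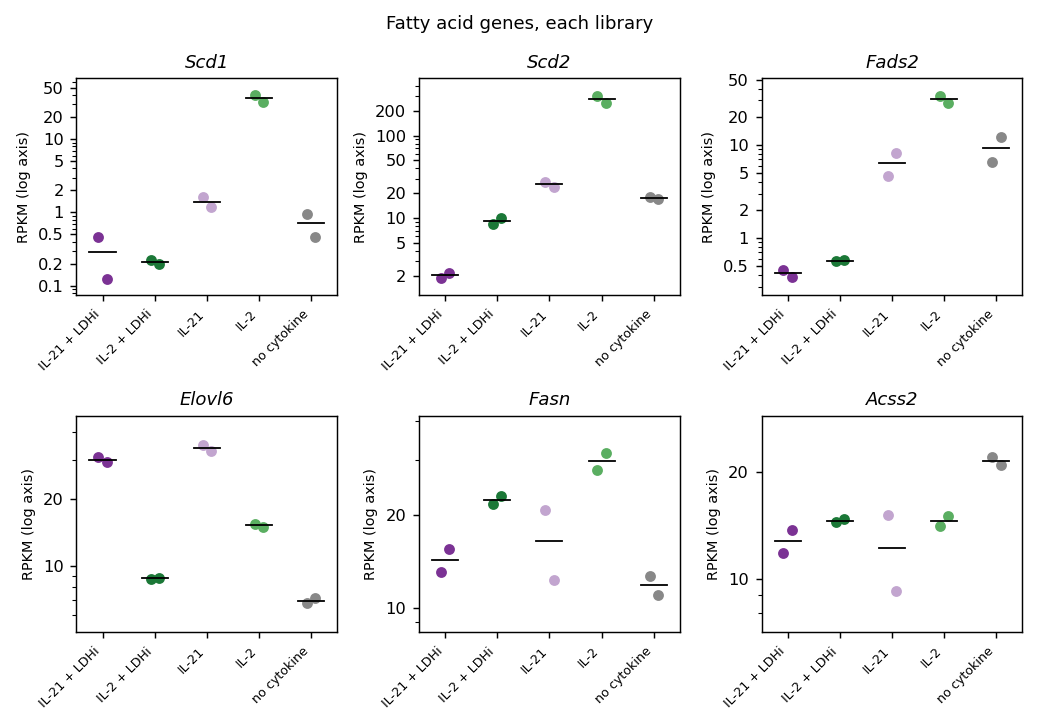
RPKM on a log axis in each library (points) with the mean of each group (line) for 3 desaturase genes, the elongase Elovl6, the synthase Fasn and the acetate-activating enzyme Acss2. Scd1 and Fads2 are lowest in the 4 libraries with inhibitor, Elovl6 is highest in the 4 libraries with IL-21, and Acss2 is highest without cytokine.

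Elovl6, which elongates saturated and monounsaturated fatty acids, followed IL-21. It measured 30.8 and 29.3 RPKM in IL-21 + LDHi, 8.71 and 8.85 in IL-2 + LDHi, 35.0 and 32.8 in IL-21, 15.5 and 15.0 in IL-2, and 6.80 and 7.13 without cytokine. The 4 libraries with IL-21 lay above all others. Elovl6 rose by 2.44 ± 0.11 in IL-21 against no cytokine (5.44-fold, adjusted p = 9.56e-06), against 1.11 ± 0.11 in IL-2 (5.29e-05), and was higher by 1.33 ± 0.11 in IL-21 than in IL-2 (2.75e-05). With inhibitor it was higher by 1.96 ± 0.11 in IL-21 + LDHi than in IL-2 + LDHi (1.93e-06). These 4 calls held in every fit without 1 library. Elovl5 and Elovl1 are elongases of other fatty acids. Elovl5 rose by 0.53 ± 0.10 in IL-2, and Elovl1 fell by 0.59 ± 0.09 in IL-21 + LDHi against IL-21.

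Another group of these enzymes supplies and builds the chain. Fasn, the synthase, measured 13.1 and 15.5 RPKM in IL-21 + LDHi, 21.6 and 22.9 in IL-2 + LDHi, 20.7 and 12.3 in IL-21, 27.9 and 31.6 in IL-2, and 12.7 and 11.0 without cytokine. It rose by 1.31 ± 0.16 in IL-2 against no cytokine (adjusted p = 0.000216), and its fall in IL-2 + LDHi against IL-2 (-0.46 ± 0.16, 0.0486) was kept only without either IL-21 library (0.271 without IL-2 replicate 2). Fasn stayed above its level without cytokine in IL-2 + LDHi (0.85 ± 0.16, 0.00507), and so did Acaca, the carboxylase that makes malonyl-CoA (0.80 ± 0.11, 0.000747). Acaca rose by 1.60 ± 0.11 in IL-2 against no cytokine and by 0.84 ± 0.11 in IL-21.

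Acacb, the carboxylase of the mitochondrial surface, was low, with 0.226 and 0.226 RPKM in IL-21 + LDHi, 0.137 and 0.144 in IL-2 + LDHi, 0.122 and 0.0676 in IL-21, 0.498 and 0.575 in IL-2, and 0.130 and 0.0836 without cytokine. It fell by 1.97 ± 0.28 in IL-2 + LDHi against IL-2 (adjusted p = 0.000743) and rose by 1.24 ± 0.29 in IL-21 + LDHi against IL-21 (0.0112). The rise was lost without IL-21 + LDHi replicate 1 (0.0561) or replicate 2 (0.0545), while the interaction of 3.21 ± 0.40 (0.000734) held in every such fit. Acsl3, which activates fatty acids, measured 1.73 and 1.52 RPKM in IL-21 + LDHi, 1.39 and 1.27 in IL-2 + LDHi, 1.35 and 1.88 in IL-21, 10.5 and 9.79 in IL-2, and 0.966 and 1.82 without cytokine. The IL-2 libraries stood apart, and the other 8 lay between 0.966 and 1.88 RPKM. Acsl3 rose by 2.85 ± 0.33 in IL-2 against no cytokine and fell by 2.97 ± 0.33 in IL-2 + LDHi against IL-2.

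Acly makes cytosolic acetyl-CoA from citrate, and Acss2 makes it from acetate. Acly rose by 0.77 ± 0.13 in IL-2 against no cytokine, and its fall in IL-2 + LDHi against IL-2 (-0.41 ± 0.13, adjusted p = 0.0367) was kept only without a library of the IL-21 or no cytokine groups (0.211 without IL-2 replicate 1). Acss2 measured 11.8 and 13.7 RPKM in IL-21 + LDHi, 14.4 and 14.7 in IL-2 + LDHi, 15.1 and 9.23 in IL-21, 14.1 and 15.0 in IL-2, and 22.0 and 20.9 without cytokine. The no cytokine libraries lay above all others. Acss2 fell in all 4 comparisons with no cytokine, by -0.63 ± 0.14 in IL-21 + LDHi, -0.62 ± 0.14 in IL-2 + LDHi, -0.69 ± 0.14 in IL-21 and -0.58 ± 0.14 in IL-2. Each of these calls was lost in 1 to 3 fits without 1 library, with adjusted p of 0.0726 without IL-21 + LDHi replicate 1, 0.0946 without IL-2 + LDHi replicate 2, 0.0607 without no cytokine replicate 1 and 0.0608 without IL-2 replicate 1 in the same order.

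**Figure D5:**
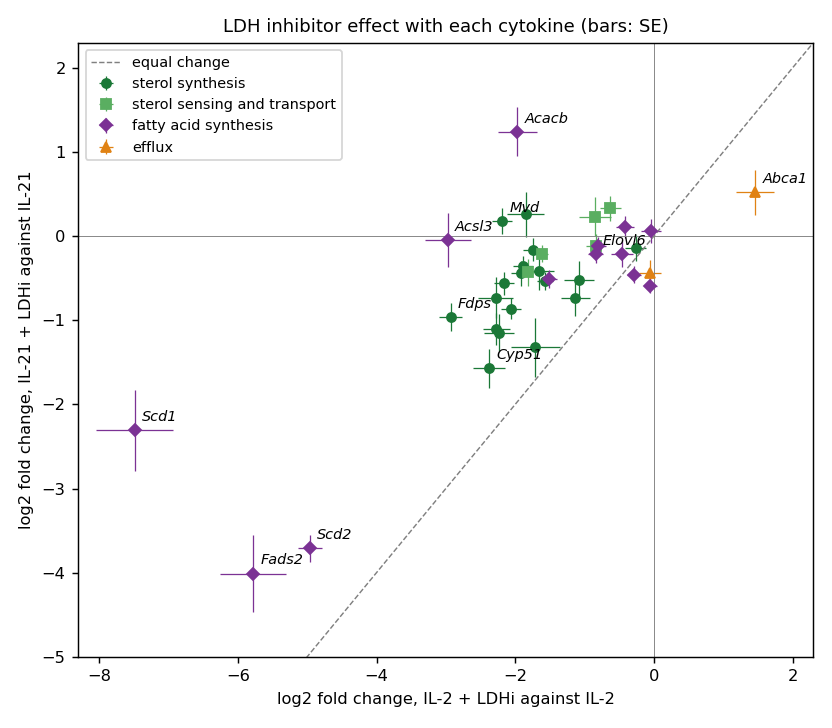
Log2 fold change ± SE of each of the 38 genes in IL-2 + LDHi against IL-2 (x axis) and IL-21 + LDHi against IL-21 (y axis), by role, with a dashed line of equal change. Scd1, Scd2 and Fads2 fell most with both cytokines, most sterol enzymes lie above the line, and Acacb lies on opposite sides of 0.

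Both exporters fell in IL-2 against no cytokine. Abca1 measured 0.918 and 1.41 RPKM in IL-21 + LDHi, 0.569 and 0.751 in IL-2 + LDHi, 0.779 and 0.798 in IL-21, 0.206 and 0.261 in IL-2, and 0.764 and 1.07 without cytokine. Both IL-2 libraries lay below all others. Abca1 fell by 1.99 ± 0.28 in IL-2 against no cytokine (adjusted p = 0.000459) and rose by 1.46 ± 0.28 in IL-2 + LDHi against IL-2 (0.00356), and both calls held in every fit without 1 library. Its change in IL-21 + LDHi against IL-21 was not called (0.52 ± 0.27, 0.174), and the interaction was not called either. Abca1 was higher by 1.00 ± 0.27 in IL-21 + LDHi than in IL-2 + LDHi (0.0238), a call lost without IL-21 + LDHi replicate 2 (0.194) or either IL-2 + LDHi library (0.178 and 0.0598).

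Abcg1 measured 3.99 and 4.89 RPKM in IL-21 + LDHi, 6.44 and 6.99 in IL-2 + LDHi, 7.39 and 4.56 in IL-21, 7.14 and 6.42 in IL-2, and 10.2 and 8.51 without cytokine. It was highest without cytokine, where the summed myeloid markers were also highest. It fell by 0.96 ± 0.17 in IL-21 + LDHi against no cytokine (adjusted p = 0.00175). Its fall in IL-2 against no cytokine (-0.48 ± 0.16, 0.0344) was lost without no cytokine replicate 1 or any 1 library of the IL-2 + LDHi or IL-2 groups (0.213 without IL-2 replicate 2), and that in IL-2 + LDHi (-0.54 ± 0.16, 0.0416) was kept only without either IL-21 library (0.231 without IL-2 + LDHi replicate 1).

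Uptake of sterols was followed in 9 genes of lipoprotein uptake and lysosomal release. They include Mylip, whose product acts against uptake. Of these, 3 rose and 3 fell in IL-2 against no cytokine, where 25.6% and 24.8% of all tested genes did, so that the counts were near the background. In IL-21 against no cytokine 2 fell, beside 5.9% of all tested genes. With the inhibitor, 2 rose and 4 fell in IL-2 + LDHi against IL-2 (17.8% and 21.6%). In IL-21 + LDHi against IL-21, 2 rose and 2 fell (11.1% and 20.3%). Mylip was 1 of the 3 that fell with IL-2 and 1 of the 2 that rose in each inhibitor comparison, so these counts mix opposite roles. Scarb1, a receptor for high-density lipoprotein, measured 4.94 and 5.08 RPKM in IL-21 + LDHi, 7.11 and 7.62 in IL-2 + LDHi, 7.63 and 6.07 in IL-21, 23.1 and 21.7 in IL-2, and 10.0 and 11.1 without cytokine. The IL-2 libraries were the highest, as for the synthesis genes, and the IL-21 + LDHi libraries the lowest. By edgeR's test Scarb1 rose by 1.07 ± 0.11 in IL-2 against no cytokine (adjusted p = 7.75e-05) and fell by 1.65 ± 0.11 in IL-2 + LDHi against IL-2 (1.87e-05).

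Mylip, an LXR target whose product marks lipoprotein receptors for degradation, had the opposite pattern. It measured 18.5 and 17.3 RPKM in IL-21 + LDHi, 9.45 and 9.84 in IL-2 + LDHi, 8.39 and 8.27 in IL-21, 3.39 and 3.07 in IL-2, and 9.43 and 9.27 without cytokine. It fell by 1.55 ± 0.13 in IL-2 against no cytokine (adjusted p = 2.51e-05), rose by 1.54 ± 0.13 in IL-2 + LDHi against IL-2 (5.11e-05) and rose by 1.06 ± 0.13 in IL-21 + LDHi against IL-21 (0.000275). Npc1, which moves cholesterol out of lysosomes, rose by 0.95 ± 0.12 in IL-2 against no cytokine and fell by 0.90 ± 0.12 in IL-2 + LDHi against IL-2. The receptor Vldlr was low, with 0.0613 and 0.0425 RPKM in IL-2 + LDHi and 1.51 and 0.503 in IL-2, and fell by 4.30 ± 0.65 between them (0.00103).

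The 7 genes of SREBP processing had calls in both directions. In IL-2 against no cytokine 1 rose (Erlin1) and 1 fell (Mbtps1), where 25.6% and 24.8% of all tested genes did. For IL-2 + LDHi against IL-2, 2 rose (Mbtps1 and Scap) and 1 fell (Erlin1), beside 17.8% and 21.6%. With 7 genes these counts do not set the list apart from all genes. Erlin1, a membrane protein that binds the SREBP complex, rose by 0.83 ± 0.15 in IL-2 against no cytokine (adjusted p = 0.00192) and fell by 0.72 ± 0.15 in IL-2 + LDHi against IL-2 (0.00558, and 0.052 without IL-2 + LDHi replicate 1). Mbtps1, the site-1 protease that cleaves SREBPs, fell by 0.59 ± 0.12 in IL-2 against no cytokine (0.0027), and its rise in IL-2 + LDHi against IL-2 was lost without any 1 library of those groups (up to 0.15, without IL-2 replicate 1). Scap, the escort gene, measured 17.2 and 18.0 RPKM in IL-21 + LDHi, 19.4 and 19.9 in IL-2 + LDHi, 16.7 and 9.77 in IL-21, 13.4 and 13.6 in IL-2, and 15.8 and 12.3 without cytokine. Its rise in IL-2 + LDHi against IL-2 (0.50 ± 0.16, 0.0352) was kept only without a library of the IL-21 or no cytokine groups (0.147 without IL-2 replicate 1).

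A further list of 8 LXR receptors and targets was not complete, since some targets, such as Abca1, Abcg1 and Mylip, were counted under other roles. Of these 8, 4 fell in IL-2 against no cytokine (24.8% of all tested genes). In IL-2 + LDHi against IL-2, 3 rose and 1 fell (17.8% and 21.6%), and 3 rose in IL-21 + LDHi against IL-21 (11.1%). Arl4c, a small GTPase and LXR target in human cells, measured 235 and 249 RPKM in IL-21 + LDHi, 124 and 131 in IL-2 + LDHi, 138 and 102 in IL-21, 52.6 and 44.1 in IL-2, and 66.4 and 71.0 without cytokine. It was highest in IL-21 + LDHi and lowest in IL-2, and rose by 1.36 ± 0.13 in IL-2 + LDHi against IL-2 (adjusted p = 8.67e-05) and by 0.99 ± 0.13 in IL-21 + LDHi against IL-21 (0.00043). Apoe, a carrier of exported cholesterol, measured 7.98 and 6.71 RPKM in IL-21 + LDHi, 4.85 and 5.43 in IL-2 + LDHi, 3.82 and 1.82 in IL-21, 1.08 and 1.17 in IL-2, and 4.33 and 3.81 without cytokine. The IL-2 libraries were the lowest. Apoe rose by 1.38 ± 0.25 in IL-21 + LDHi against IL-21 (0.003). It is also made by macrophages, and the part of other cells in its change was not tested. Rxra, the partner receptor of the LXRs, rose by 1.66 ± 0.18 in IL-2 + LDHi against IL-2 and by 1.60 ± 0.18 in IL-21 + LDHi against IL-21. Not all genes of the list were higher with the inhibitor. Lpcat3 measured 13.1 and 13.0 RPKM in IL-2 + LDHi, below the 19.4 and 15.7 in IL-2. Its levels were 19.0 and 18.7 RPKM in IL-21 + LDHi, 18.9 and 16.1 in IL-21, and 14.3 and 13.5 without cytokine.

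Among 6 genes that esterify cholesterol, release it or make oxysterols, 4 passed the filter. Soat2, which esterifies cholesterol, measured 1.38 and 1.49 RPKM in IL-21 + LDHi, 2.85 and 2.88 in IL-2 + LDHi, 10.7 and 6.01 in IL-21, 10.2 and 10.7 in IL-2, and 6.38 and 4.26 without cytokine. All 4 libraries with inhibitor lay below all 6 without. Soat2 fell by 1.90 ± 0.22 in IL-2 + LDHi against IL-2 (adjusted p = 0.000274) and by 2.54 ± 0.23 in IL-21 + LDHi against IL-21 (5.71e-05). It was the 1 gene of the 4 called in each of these comparisons, where 21.6% and 20.3% of all tested genes fell. The count for the list was thus near the background. Soat1, the other esterifying enzyme, measured between 9.56 and 13.7 RPKM in all libraries and rose by 0.38 ± 0.12 in IL-2 against no cytokine (0.0278, a call lost without IL-2 replicate 1 (0.178), no cytokine replicate 1 (0.0612) or replicate 2 (0.104)).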

How the data were processed

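RNA-seq libraries of cultured mouse CD8+ T cells (500 ng RNA each) were analysed from the tables the authors deposited for each of the 10 libraries. The deposited tables list raw read counts for RefSeq transcripts, and RPKM that the authors deposited beside the counts, with the library total as the denominator. Bowtie2 2.2.6, TopHat2 2.2.1, SAMtools 0.1.8, bedtools 2.25.0, edgeR and mm10 are named, per the submitters' processing notes. Whether reads were counted by strand is not given.

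Of 31682 transcripts of 23992 symbols, the transcript with the most reads per symbol was kept, with 27137191 to 46656183 reads a library. The test was that of edgeR 4.0.16 (R 4.3.3), after its filterByExpr step at a count of 10 and a total of 15, with TMM scaling and 1 robust quasi-likelihood fit over all libraries with a term for each group (14357 genes tested, common biological coefficient of variation 0.171). The 9 comparisons were two-sided, with Benjamini-Hochberg adjustment over all tested genes, and each SE was derived from the log2 fold change and its F statistic, as their ratio with F under the root. The script was tested on simulated data. Levels and promoter letters are described without a test, and figures were drawn with matplotlib 3.10.9 in Python 3.11.15.

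The members and lists were chosen with earlier results of these data known. All 38 members are named, and in each further list the genes named come from the 4 of lowest p over the comparisons. Erlin2, Cyp27a1 and Nceh1 were also among the 4 of their lists, and their values are not described. Some genes of these pathways are not reported here. Alternatives were RLE scaling, library size alone, DESeq2 1.42.0, no filter, limma 3.58.1 on log2(RPKM + 1) for genes with a mean RPKM of 1 or more, the groups compared alone, a replicate block, the longest transcript, and each library left out in turn.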

Additional observations from a re-analysis of the deposited data

Results flagged for a closer look

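The change with the inhibitor differed between the cytokines, by the interaction in edgeR's quasi-likelihood test with Benjamini-Hochberg adjustment, for 26 of the 38 genes. The values are log2 differences, the change in IL-21 + LDHi against IL-21 minus that in IL-2 + LDHi against IL-2. Among sterol enzymes they were 2.37 for Mvd, 2.11 for Tm7sf2, 1.97 for Fdps, 1.60 for Pmvk, 1.58 for Acat2, 1.55 for Msmo1, 1.53 for Nsdhl, 1.46 for Lss, 1.25 for Mvk, 1.2 for Fdft1, 1.17 for Hmgcs1, 1.08 for Sqle and 1.04 for Dhcr7. Among genes of sensing and transport they were 1.41 for Insig1, 1.39 for Stard4, 1.08 for Srebf1, 0.97 for Insig2 and 0.72 for Srebf2. Among fatty acid genes they were 5.18 for Scd1, 3.21 for Acacb, 2.91 for Acsl3, 1.25 for Scd2, 1.01 for Fads1, 0.68 for Acaca, 0.63 for Elovl6 and -0.54 for Elovl1. The 1 negative value, that of Elovl1, was lost in 6 of the 10 fits without 1 library (adjusted p up to 0.0963, without IL-2 + LDHi replicate 2), and 16 of the 25 positive ones held in all of them.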

How the results depend on the processing

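Over the alternatives, 0 of the changes of single genes that were followed reversed in sign. Counts of called genes moved by at most 1.5 times in 250 cases and by more in 74. Of the medians of the roles 36 moved by more than the spread between libraries and 612 did not. Reversals were not counted for medians, and some medians changed sign, such as that of the exporters. With limma the median of the exporters, which then holds Abcg1 alone, was -0.01 in IL-2 + LDHi against IL-2 and -0.33 in IL-21 + LDHi against IL-21. Calls of single genes stayed in 4977 cases, were lost in 594 and gained in 7. The cause of each move was not tested. In IL-21 against no cytokine the 8 higher calls became 4 with library size alone, 1 with the groups compared alone, 13 with DESeq2 and 2 with limma, and the 1 lower call became 2 with library size alone, 0 with the groups compared alone and 2 with DESeq2. For IL-21 + LDHi against IL-21 the 17 lower calls became 9 with the groups compared alone, and the 1 higher call became 2 with the replicate block, 0 with the groups compared alone and 0 with limma. Between the groups with inhibitor the 2 higher calls became 7 with the groups compared alone and 1 with limma. In IL-2 + LDHi against no cytokine the 4 higher calls became 7 with DESeq2 and the 5 lower calls 2 with limma. With limma, higher calls became 2 in IL-21 + LDHi against no cytokine, 1 in IL-21 against IL-2 and 0 in IL-2 + LDHi against IL-2, and lower calls became 0 in IL-2 against no cytokine. The 1 negative interaction became 0 without the filter, 2 with the replicate block and 0 with limma. Without 1 library the higher and lower calls ranged from 32 to 35 and 1 to 3 (IL-2 against no cytokine), 2 to 14 and 0 to 4 (IL-21 against no cytokine), 2 to 2 and 27 to 33 (IL-21 against IL-2), 1 to 1 and 28 to 33 (IL-2 + LDHi against IL-2), 0 to 4 and 9 to 19 (IL-21 + LDHi against IL-21), 1 to 5 and 4 to 18 (IL-21 + LDHi against IL-2 + LDHi), 2 to 11 and 2 to 5 (IL-2 + LDHi against no cytokine), 2 to 9 and 5 to 13 (IL-21 + LDHi against no cytokine), and 16 to 28 and 0 to 1 (interaction). Deviations of same-numbered libraries correlated at 0.483 between IL-21 and no cytokine and at -0.147 to 0.111 in the other 9 pairs of groups, so the numbers were not taken to pair the libraries throughout. With the replicate block IL-21 against no cytokine had 9 higher and 1 lower calls. Library size alone shifted the median of all genes by -0.14 in IL-2 against no cytokine, 0.12 in IL-2 + LDHi against IL-2 and -0.14 in the interaction. The planned score of each list with another pseudocount was not run. With 2 libraries a group, small changes may be missed.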

Other observations

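In 17 further genes of fatty acid supply and use, 13 rose and 2 fell in IL-2 against no cytokine, where 25.6% and 24.8% of all tested genes did, and 1 rose and 11 fell in IL-2 + LDHi against IL-2 (17.8% and 21.6%). With IL-21, 1 rose and 7 fell in IL-21 + LDHi against IL-21 (11.1% and 20.3%). Fabp5, a carrier of fatty acids in the cytosol, measured 1.82 and 2.32 RPKM in IL-21 + LDHi, 16.4 and 17.2 in IL-2 + LDHi, 12.5 and 12.2 in IL-21, 47.4 and 42.3 in IL-2, and 14.4 and 22.9 without cytokine. Its IL-21 + LDHi libraries lay far below all others. By edgeR's test it fell by 2.62 ± 0.25 in IL-21 + LDHi against IL-21 (adjusted p = 6.67e-05) and by 1.46 ± 0.22 in IL-2 + LDHi against IL-2 (0.00106). Slc25a1, which exports citrate from mitochondria, rose by 1.56 ± 0.12 in IL-2 against no cytokine and fell by 1.72 ± 0.12 in IL-2 + LDHi against IL-2. Lpin1, a phosphatidate phosphatase, and Mid1ip1, a partner of acetyl-CoA carboxylase, fell in IL-2 + LDHi against IL-2 by 1.25 ± 0.12 and 1.02 ± 0.14.

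The 9 genes of the isoprenoid branches, which use the same precursor as sterols for ubiquinone, dolichol and protein prenylation, had few calls. In IL-2 against no cytokine 3 of 9 rose, where 25.6% of all tested genes did, and in IL-2 + LDHi against IL-2, 1 of 9 rose, where 17.8% did, so that both counts were near the background. Pdss2, a subunit of the synthase of the ubiquinone tail, rose by 1.04 ± 0.27 in IL-2 against no cytokine (adjusted p = 0.0101, 0.0744 without IL-2 replicate 1 and 0.0667 without no cytokine replicate 2), and Pdss1, the other subunit, by 0.83 ± 0.18 (0.00498). Coq2, which joins that tail to the ring, rose by 0.74 ± 0.17 in IL-21 + LDHi against IL-21 (0.0096, and 0.0791 without IL-21 + LDHi replicate 2), and Fntb, a farnesyltransferase subunit, by 0.51 ± 0.12 (0.0112, and 0.0542 and 0.0797 without IL-21 + LDHi replicate 1 and 2).

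Ldha, which encodes a subunit of the inhibited enzyme, averaged 174.7 ± 3.52 RPKM in IL-21 + LDHi, 279.5 ± 9.77 in IL-2 + LDHi, 282.7 ± 108 in IL-21, 977.0 ± 122 in IL-2 and 214.5 ± 8.18 without cytokine (SD, n = 2 each), so that it was highest in IL-2, as the synthesis genes were. An RNA level does not show whether the enzyme was inhibited.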
